A study of Mus musculus with 19 samples.

Results

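The E2F transcription factors and the pocket proteins that bind them are described here in the cerebellum of mice that lost Gsα. They comprise 10 genes, E2f1 to E2f8, Rb1 and Rbl1, chosen by name as the measured E2F genes and 2 of their pocket protein partners, out of 22193 genes in the deposited tables. Whole cerebellum of C57BL/6 mice was taken for RNA sequencing on postnatal day 60. Wild type (Ctrl) was represented by 3 mice, against 8 mice with a conditional knockout of Gsα through Olig1Cre (Olig1-Gnas) and 8 with the knockout through hGFAPCre (hGFAP-Gnas). Gsα, encoded by Gnas, is the stimulatory G protein subunit upstream of adenylyl cyclase and cAMP, and the series title names it as a tumor suppressor in medulloblastoma of the Sonic hedgehog type. Olig1 is a gene of the oligodendrocyte lineage and its progenitors, and the human GFAP promoter is active in neural progenitors and astrocytes, so Cre is not expected in every cerebellar cell. The table of hGFAP-Gnas carries the word tumor in its name, so a difference from Ctrl can also be one between tumor-bearing and normal tissue, and the labels do not separate the possibilities.

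E2F factors bind the promoters of genes needed for DNA synthesis and division. In resting cells pocket proteins hold the activating factors E2F1, E2F2 and E2F3 inactive, and E2F4 and E2F5 bring pocket proteins to promoters to keep them silent. Cyclin-dependent kinases phosphorylate the pocket proteins when cells enter the cycle, and the activating factors are then released. E2F6 represses without pocket proteins, through Polycomb-type complexes, and the atypical factors E2F7 and E2F8 bind without a DP partner and turn E2F targets down again late in S phase. In the cerebellum, granule neuron progenitors are the population that divides after birth under Sonic hedgehog, and their division normally ends well before adulthood.

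Some genes of the family carry E2F-type letters in their own promoters. A scan for TTTCCCGC, TTTGGCGC, TTTCGCGC and TTTGCCGC on both strands covered the window from 250 bases before to 50 bases after each start site in the RefSeq table for GRCm38.p6. These 4 words do not cover every known E2F site, and a match is a description of letters, not a bound site. The table held 7 of the 10 genes, E2f1, E2f2, E2f3, E2f6, E2f7, E2f8 and Rbl1, and 4 of these 7 had a match. E2f4, E2f5 and Rb1 have no entry. Of all 32851 windows, 2.26% held at least 1 of the words. Counted by gene, as for the 7, the share was 2.6% of 27025 genes. The stretches with a match are shown because 4 genes that rose in the knockouts carry them. They are written 5′ to 3′ on the strand of the gene with the match in capitals, as 100 bases for matches before the start and as 30 bases for the match in E2f2, which lies after it. E2f2 and E2f3 have 2 windows each, and only the 1 with the match is shown.
E2f2, chr4:136172294-136172323, plus strand: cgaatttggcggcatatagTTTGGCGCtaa
E2f3, chr13:29986064-29986163, minus strand: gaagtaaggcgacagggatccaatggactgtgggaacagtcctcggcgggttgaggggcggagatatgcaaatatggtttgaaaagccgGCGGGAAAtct
E2f7, chr10:110745195-110745294, plus strand: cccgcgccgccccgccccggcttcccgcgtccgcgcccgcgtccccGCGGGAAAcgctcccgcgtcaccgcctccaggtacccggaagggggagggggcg
Rbl1, chr2:157204535-157204634, minus strand: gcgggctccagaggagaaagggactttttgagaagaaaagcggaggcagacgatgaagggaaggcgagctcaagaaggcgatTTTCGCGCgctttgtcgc

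Counted from the start site, whose first base is +1, the match began at +40 in E2f2, -11 in E2f3, -198 in E2f7 and -18 in Rbl1. E2f1 and E2f8, which rose as well, have none of the 4 words in their windows, and neither has E2f6. That says only that these letters are not in these windows. Among genes tested in Olig1-Gnas, 4.68% of 9821 with a window held a word, against 6.57% of the 3666 called higher and 3.06% of the 2320 called lower. In hGFAP-Gnas the shares were 4.65% of all 9934 tested, 6.96% of the 2700 called higher and 2.77% of the 1262 called lower.

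Values are FPKM, fragments scaled to transcript length and to the library total, so levels of different genes are compared per length. Means carry their SD, with n = 3 in Ctrl and n = 8 in each knockout unless another n is given. Fold changes are log2 differences of FPKM + 1 with their SE, and p-values are from limma with Benjamini-Hochberg adjustment over all genes tested. Called means an adjusted p under 0.05. For genes with low values the added 1 keeps the log2 difference below the ratio of means. All 10 genes passed the filter of 1 FPKM in at least 3 libraries. E2f2, E2f7 and E2f8 were below 1 FPKM in every Ctrl library and passed only through the knockouts. E2f1 was at 0.974 FPKM in Ctrl 2, so it also needed knockout libraries to pass. A fall of these genes from Ctrl could hardly have been tested, and the counts of calls include them.

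Several facts of the libraries touch all results. Read totals are not given in the sources used here, and steps among low values placed 10 libraries at 0.838 to 1.07 times the depth of Ctrl 2 (Ctrl 1 and 2, Olig1-Gnas 5 to 8, hGFAP-Gnas 1 to 4) and 9 at 0.268 to 0.429. Gnas itself is listed at 651 and 798 FPKM in Ctrl 1 and 2 but at 0 in Ctrl 3, and at 0 to 121 FPKM in Olig1-Gnas, in the table of that knockout. In the table of hGFAP-Gnas it is listed at 798 FPKM in Ctrl 2, at 0 in Ctrl 1 and 3, at 40.9 FPKM in hGFAP-Gnas 5 and at 0 in the other 7. A listed 0 in Ctrl cannot be taken as absence, so these values do not check the knockout labels. Y-linked signal, read as Ddx3y at 1 FPKM or more, was uneven between the groups. It was present in Ctrl 1 and 2, in Olig1-Gnas 5 and 8, and in every hGFAP-Gnas library except hGFAP-Gnas 3. Differences between the knockouts are therefore largely mixed with it. The library hGFAP-Gnas 1 stood apart: its values for most of the 10 genes were close to Ctrl, and so were its summed markers of mature granule neurons, at 1235 FPKM against 1416 to 1827 in Ctrl. The log2 differences of the 10 genes in hGFAP-Gnas, the make-up of their transcripts and the counts of gene lists are therefore given with and without it, and values of other single genes in hGFAP-Gnas include it. Because hGFAP-Gnas 1 was set apart by the values under test, results without it are descriptive. Their p-values and calls depend on that choice and add no support.

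In the wild-type cerebellum the family was dominated by E2f4 and E2f6. E2f4 averaged 25.0 ± 2.45 FPKM, above 81.7% of all genes, and E2f6 averaged 20.3 ± 0.505 FPKM. The pocket protein gene Rb1 came next at 16.7 ± 1.31 FPKM, followed by E2f5 at 9.98 ± 0.566 FPKM and E2f3 at 4.29 ± 0.390 FPKM. Rbl1 at 1.92 ± 0.346 FPKM and E2f1 at 1.46 ± 0.422 FPKM were neighbors whose libraries overlapped, and other neighbors in this order did not overlap. E2f7 was at 0.312 ± 0.0714 FPKM, E2f2 at 0.129 ± 0.0354 FPKM and E2f8 at 0.0626 ± 0.0224 FPKM. E2f8 lay above only 26.3% of all genes. E2f1 rose to the top of this order in the knockouts, at a mean of 68.8 FPKM in Olig1-Gnas and 46.3 FPKM in hGFAP-Gnas, and E2f4 and Rb1 came next in both. E2f8, the lowest in Ctrl, reached means of 14.7 and 9.75 FPKM, beside 14.7 and 14.2 FPKM for E2f3, and E2f7 was the lowest in both knockouts.

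**Figure D1:**
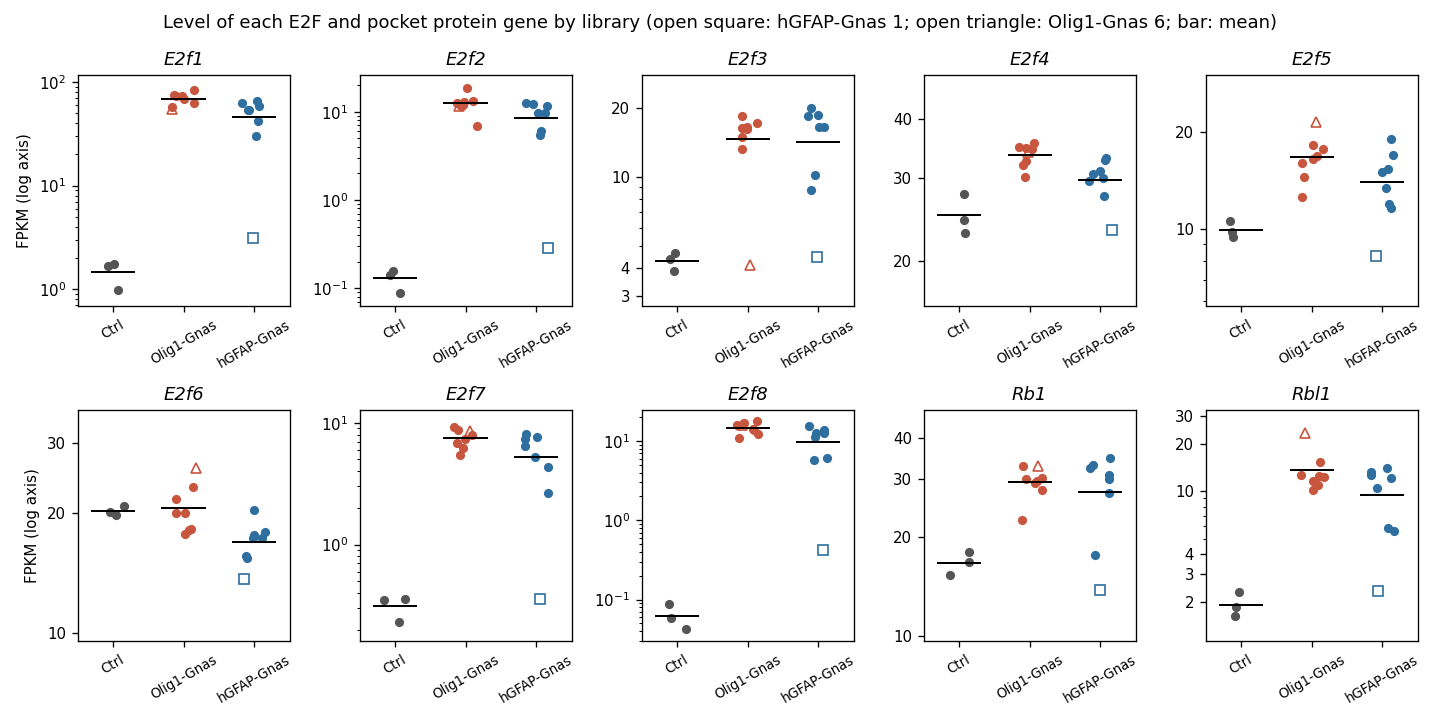
Each panel plots FPKM on a log axis for 1 gene, with 1 point per library in Ctrl (n = 3), Olig1-Gnas (n = 8) and hGFAP-Gnas (n = 8) and a bar at the mean. E2f1, E2f2, E2f7 and E2f8 sat far above Ctrl in every knockout library except hGFAP-Gnas 1 (open square), and Olig1-Gnas 6 (open triangle) stood apart in E2f3 and Rbl1.

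The first comparison asks how the cerebellum with the Olig1Cre-driven knockout differs from wild type. In Olig1-Gnas, 9 of the 10 genes rose, none fell, and E2f6 was not called. The rises were largest for E2f1, E2f8 and E2f2, intermediate for E2f7, Rbl1 and E2f3, and small for Rb1, E2f5 and E2f4. Many other genes rose as well: 36.2% of the 14183 genes tested were called higher. Every Olig1-Gnas library lay above every Ctrl library for 8 of the 10 genes, all but E2f3 and E2f6, against 32.2% of all genes tested. The median log2 difference of the 10 genes was 1.88, and that of all genes tested was 0.22. Because whole tissue was sequenced, a change in the number of cells of a type and a change in RNA per cell cannot be told apart here.

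Among the activating factors, E2f1 reached the highest level in Olig1-Gnas. E2f1 (mm9 chr2:154385374-154395588) drives genes of S phase entry and can also trigger apoptosis. It stood at 1.74, 0.974 and 1.67 FPKM in Ctrl, and in Olig1-Gnas at 55.5 FPKM in the lowest, 70.8 FPKM in the median and 84.1 FPKM in the highest library. The lowest knockout library was still far above the highest Ctrl library. The mean rose 47.2-fold, from 1.46 to 68.8 ± 9.82 FPKM (log2 difference 4.83 ± 0.15, adjusted p = 1.08e-09). Its log2 difference exceeded that of 99.4% of genes tested, and its level moved from above 43.3% to above 93.2% of all genes.

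E2f2 and E2f3 share with E2f1 the binding to the retinoblastoma protein. E2f2 (mm9 chr4:135728308-135751971) stood at 0.157, 0.142 and 0.0892 FPKM in Ctrl and at 6.86, 12.2 and 18.7 FPKM in the lowest, median and highest Olig1-Gnas library. The groups did not overlap, and the ratio of means was 96.1 (log2 difference 3.53 ± 0.23, adjusted p = 1.27e-07). That ratio is above the 47.2 of E2f1, and the order of their log2 differences turns with the offset: with 0.1 in place of 1 added, E2f2 had 5.74 and E2f1 5.49. E2f3 (mm9 chr13:29998443-30077932) was the activating factor with the highest level in Ctrl, at 3.88, 4.35 and 4.65 FPKM. In Olig1-Gnas it ranged from 13.3 to 18.6 FPKM in 7 libraries, while Olig1-Gnas 6 held 4.11 FPKM, within the Ctrl range. E2f3 rose 3.42-fold (log2 difference 1.48 ± 0.34, adjusted p = 0.00287). Among the deeper libraries alone, which include Olig1-Gnas 6, the call ended (1.24, adjusted p = 0.0976).

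The atypical factors E2f7 and E2f8, whose products limit E2F output in cycling cells, moved from near the floor to moderate levels. E2f8 (mm9 chr7:56121798-56136411) stood at 0.0429, 0.0870 and 0.0580 FPKM in Ctrl and at 10.8, 15.0 and 17.8 FPKM in the lowest, median and highest Olig1-Gnas library. That ratio of means, 235, was the largest of the 10 genes, on a Ctrl level that rests on few fragments (log2 difference 3.87 ± 0.17, adjusted p = 6.74e-09). E2f7 (mm9 chr10:110182520-110224440) stood at 0.347, 0.359 and 0.230 FPKM in Ctrl and at 5.41, 7.65 and 9.16 FPKM in Olig1-Gnas. Its groups did not overlap either, and the mean rose 24.1-fold (log2 difference 2.69 ± 0.18, adjusted p = 1.94e-07).

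The pocket protein genes rose unequally. Rbl1 (mm9 chr2:156971629-157030270), a pocket protein that pairs mainly with E2F4 and E2F5 and is itself known as an E2F target, stood at 1.85, 1.62 and 2.30 FPKM in Ctrl. In Olig1-Gnas it stood at 10.2, 12.4 and 23.4 FPKM in the lowest, median and highest library, with Olig1-Gnas 6 the highest. It rose 7.08-fold (log2 difference 2.29 ± 0.22, adjusted p = 4.20e-06). Rb1 (mm9 chr14:73595308-73725598), the retinoblastoma tumor suppressor, stood at 16.8, 15.3 and 17.98 FPKM in Ctrl and at 22.4, 29.7 and 32.9 FPKM in Olig1-Gnas. Every knockout library was above Ctrl, with a 1.76-fold mean (log2 difference 0.77 ± 0.12, adjusted p = 2.31e-04). Rbl2, the pocket protein of resting cells, is not among the 10 genes and was added after its values were seen. Its mean was 16.3 ± 1.42 FPKM in Ctrl against 15.8 ± 1.02 FPKM in Olig1-Gnas (log2 difference -0.04 ± 0.11, adjusted p = 0.756).

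The factors linked to repression changed little against the others. E2f4 (mm9 chr8:107821562-107829270), the main partner of pocket proteins in resting cells, stood at 22.9, 24.5 and 27.7 FPKM in Ctrl and at 30.2, 34.4 and 35.5 FPKM in the lowest, median and highest Olig1-Gnas library. The groups did not overlap, and the mean rose 1.34-fold (log2 difference 0.41 ± 0.10, adjusted p = 0.00325). This call ended when values were quantile normalized (0.23, adjusted p = 0.0825) or scaled to the upper quartile (0.22, adjusted p = 0.0855), which move the median of all genes from 0.22 to 0.06 and 0.04. E2f5 (mm9 chr3:14578670-14611256) stood at 10.6, 9.51 and 9.82 FPKM in Ctrl and at 12.6, 16.7 and 21.4 FPKM in Olig1-Gnas, a 1.68-fold rise (log2 difference 0.68 ± 0.15, adjusted p = 0.00173). E2f6 (mm9 chr12:16817770-16833558) stood at 20.9, 19.9 and 20.2 FPKM in Ctrl and at 17.7, 20.1 and 26.1 FPKM in Olig1-Gnas. Its groups overlapped, and the log2 difference was 0.01 ± 0.13 with a 95% interval from -0.27 to 0.30 (adjusted p = 0.930). Among the shallower libraries alone, with Ctrl 3 as the only control, E2f4, E2f5 and Rb1 were not called, at 0.30, 0.55 and 0.60 (adjusted p = 0.149, 0.0912 and 0.0793).

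**Figure D2:**
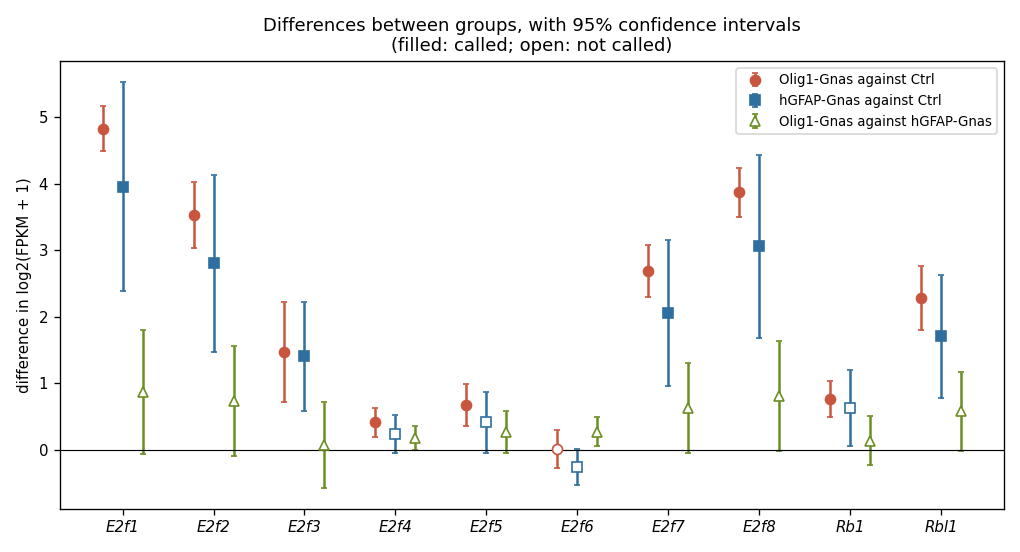
The plot shows the log2 difference of FPKM + 1 for each of the 10 genes with its 95% interval, in Olig1-Gnas against Ctrl, hGFAP-Gnas against Ctrl, and Olig1-Gnas against hGFAP-Gnas, with called genes filled. The intervals against Ctrl are wider in hGFAP-Gnas, and between the knockouts all intervals but that of E2f6 include 0.

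The second comparison asks the same of the hGFAPCre-driven knockout, with the same 3 Ctrl mice, so it is not independent of the first. In hGFAP-Gnas, E2f1, E2f2, E2f3, E2f7, E2f8 and Rbl1 rose, and E2f4, E2f5, E2f6 and Rb1 were not called. These 6 of 10 compare with 26.1% of the 14305 genes tested called higher. For E2f1, E2f2, E2f8 and Rbl1, 4 of the 10, every knockout library lay above every Ctrl library, against 15.2% of all genes tested. The median log2 difference was 1.56 for the 10 genes and 0.19 for all genes tested. Without hGFAP-Gnas 1, 9 of the 10 genes were called higher, with 38.0% of all genes called higher in that fit. That library was set apart by its values for these same genes, so this count is descriptive.

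E2f1 stood at 3.12 FPKM in hGFAP-Gnas 1 and between 29.9 and 66.3 FPKM in the other 7 libraries, with a median of 53.9 FPKM over the 8. Even the lowest was above the 1.74 FPKM of the highest Ctrl library. The mean rose 31.7-fold to 46.3 ± 21.0 FPKM (log2 difference 3.96 ± 0.72, adjusted p = 0.00700), and to 52.5 ± 12.6 FPKM without hGFAP-Gnas 1 (4.42 ± 0.23, adjusted p = 2.37e-07). E2f2 stood at 0.286 FPKM in hGFAP-Gnas 1 and from 5.40 to 12.6 FPKM in the other libraries (log2 difference 2.80 ± 0.61, adjusted p = 0.0101, and 3.18 ± 0.25, adjusted p = 3.72e-06, without hGFAP-Gnas 1). E2f8 showed the same layout, with 0.424 FPKM in hGFAP-Gnas 1 and 5.74 to 15.6 FPKM elsewhere (3.06 ± 0.63, adjusted p = 0.00886, and 3.43 ± 0.29, adjusted p = 5.08e-06, without hGFAP-Gnas 1).

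E2f7 stood at 0.356 FPKM in hGFAP-Gnas 1, inside the Ctrl range, and from 2.63 to 8.02 FPKM in the other 7 libraries (log2 difference 2.06 ± 0.50, adjusted p = 0.0136). E2f3 stood at 4.46 FPKM in hGFAP-Gnas 1, also inside the Ctrl range, and from 8.74 to 20.0 FPKM in the others (1.41 ± 0.38, adjusted p = 0.0174). Rbl1 stood at 2.35 FPKM in hGFAP-Gnas 1, just above Ctrl 3 at 2.30 FPKM, and from 5.59 to 14.0 FPKM in the others (1.71 ± 0.42, adjusted p = 0.0142). Without hGFAP-Gnas 1 the log2 differences were 2.35 ± 0.27 for E2f7 (adjusted p = 4.81e-05), 1.60 ± 0.24 for E2f3 (adjusted p = 3.16e-04) and 1.92 ± 0.28 for Rbl1 (adjusted p = 2.53e-04). In all of E2f1, E2f2, E2f7, E2f8 and Rbl1 the libraries hGFAP-Gnas 2 and 7 were the next lowest after hGFAP-Gnas 1.

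Rb1 stood at 13.8 FPKM in hGFAP-Gnas 1, below every Ctrl library, and at 17.6 FPKM in hGFAP-Gnas 2, inside the Ctrl range. In the other 6 libraries it stood from 27.1 to 34.8 FPKM. Its log2 difference was 0.63 ± 0.26 (adjusted p = 0.0747), and it was called without hGFAP-Gnas 1 (0.76, adjusted p = 0.00537) and without hGFAP-Gnas 2 (adjusted p = 0.0438). E2f4 at 29.7 ± 3.20 FPKM and E2f5 at 14.0 ± 3.37 FPKM had log2 differences of 0.24 ± 0.13 (adjusted p = 0.154) and 0.41 ± 0.21 (adjusted p = 0.127). Without hGFAP-Gnas 1 these became 0.29 (adjusted p = 0.0360) and 0.51 (adjusted p = 0.0160), and both were called. E2f6 stood at 16.9 ± 2.02 FPKM (log2 difference -0.26 ± 0.13, adjusted p = 0.119, and -0.22 ± 0.11, adjusted p = 0.109, without hGFAP-Gnas 1), and it was called lower after quantile normalization (-0.43, adjusted p = 0.0136) and upper quartile scaling (-0.39, adjusted p = 0.0176). Rbl2, again added after its values were seen, stood at 17.3 ± 1.86 FPKM (0.08 ± 0.12, adjusted p = 0.625).

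The number of calls in hGFAP-Gnas changed with single libraries. Leaving out single Ctrl libraries gave 3 calls among the 10 genes without Ctrl 1, 2 without Ctrl 2 and 4 without Ctrl 3. Calls over all genes fell as well, from 5570 of 14305 to 1049 of 14250, 818 of 14239 and 1924 of 14208 in the same order. E2f1 and E2f8 were the genes called in every fit that left out 1 library. Among the deeper libraries alone, which include hGFAP-Gnas 1 to 4 and 2 Ctrl, none of the 10 genes was called by limma, and 6 of 13872 genes in all were (E2f1 3.57, adjusted p = 0.259). At an unadjusted p under 0.05, 4 of the 10 genes and 2651 of all genes passed in that fit. Among the shallower libraries alone, with Ctrl 3 as the only control, 6 were called, E2f1, E2f2, E2f3, E2f7, E2f8 and Rb1, beside 2277 of 13494 genes in all.

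The third comparison sets the knockouts against each other. None of the 10 genes differed between Olig1-Gnas and hGFAP-Gnas by limma, and 0.41% of the 14386 genes tested did. At an unadjusted p under 0.05, 1 of the 10 genes and 3410 of all genes passed. That gene was E2f6, at 20.7 ± 2.87 against 16.9 ± 2.02 FPKM (log2 difference 0.27 ± 0.10, 95% interval 0.05 to 0.49, adjusted p = 0.169). The intervals leave room for sizeable differences in others: E2f1 was 0.87 higher in Olig1-Gnas with an interval from -0.06 to 1.81 (adjusted p = 0.236), E2f8 was 0.81 higher with -0.01 to 1.64 (adjusted p = 0.216), and Rbl1 was 0.58 higher with -0.01 to 1.17 (adjusted p = 0.220). These 3 values moved by over 1.5 times without hGFAP-Gnas 1, to 0.41 ± 0.15 for E2f1 (adjusted p = 0.200), 0.44 ± 0.19 for E2f8 (adjusted p = 0.255) and 0.36 ± 0.21 for Rbl1 (adjusted p = 0.358). E2f6 had 0.23 ± 0.10 in that fit (adjusted p = 0.249), where 76 of 14284 genes in all were called. E2f3 differed by 0.07 with an interval from -0.58 to 0.72 (adjusted p = 0.906). With Y-linked signal as a term in the limma fit, 0 of the 10 genes and 652 of all genes had an unadjusted p under 0.05. The tables of the knockouts hold the same Ctrl 2 and 3 values, and Ctrl 1 differs with a median ratio of 1.

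**Figure D3:**
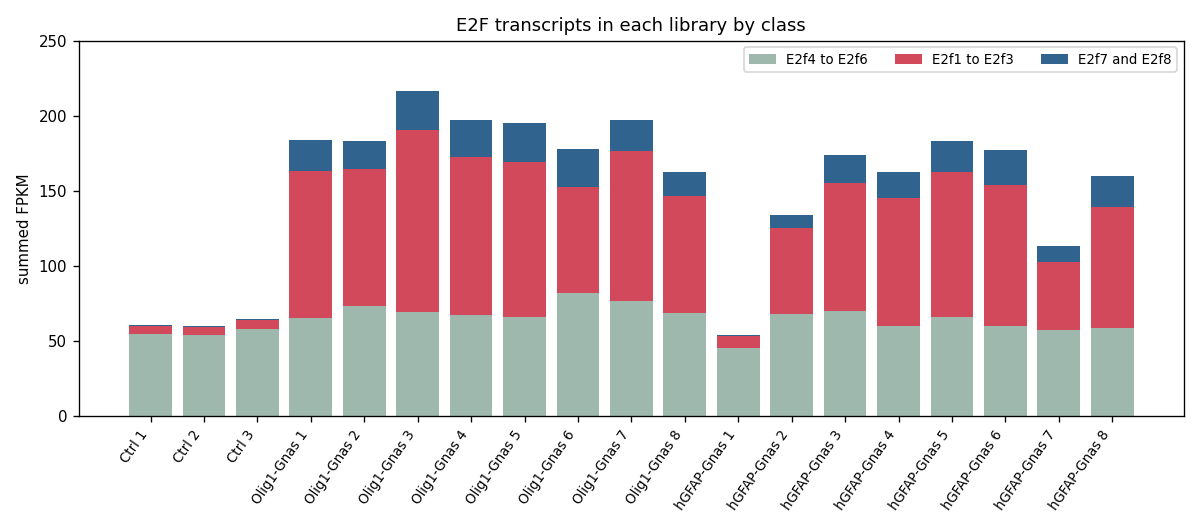
The stacked bars show the summed FPKM of the E2F genes in each of the 19 libraries, split into E2f4 to E2f6, E2f1 to E2f3, and E2f7 with E2f8. Bars in Ctrl are mostly E2f4, E2f5 and E2f6, bars in the knockouts are taller with E2f1 to E2f3 as the largest addition, and the bar of hGFAP-Gnas 1 is near those of Ctrl.

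The make-up of E2F transcripts changed with these levels. The E2F genes summed to 61.6 ± 2.50 FPKM in Ctrl, 189 ± 16.2 FPKM in Olig1-Gnas and 145 ± 43.6 FPKM in hGFAP-Gnas, or 157.6 ± 25.5 FPKM without hGFAP-Gnas 1 (n = 7). The activating E2f1, E2f2 and E2f3 made up 9.54 ± 0.397% of this sum in Ctrl, between 9.15 and 9.94%. In Olig1-Gnas they made up 50.5 ± 4.89%, from 40.1% in Olig1-Gnas 6 to 56.0%. In hGFAP-Gnas they made up 44.4 ± 12.9%, from 14.6% in hGFAP-Gnas 1 to 53.0%, and 48.6 ± 5.13% without hGFAP-Gnas 1 (n = 7). No knockout library fell within the Ctrl range of this share. E2f1 alone held 2.36% of the sum in Ctrl, 36.3% in Olig1-Gnas and 29.5% in hGFAP-Gnas, or 32.9% without hGFAP-Gnas 1.

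The summed FPKM of E2f4, E2f5 and E2f6 moved much less, from 55.3 ± 2.11 in Ctrl to 71.0 ± 5.69 in Olig1-Gnas and 60.6 ± 7.75 in hGFAP-Gnas, while their share fell from a mean of 89.8% to 37.8% and 46.2%. E2f7 and E2f8 went from 0.613% of the sum in Ctrl to 11.7 ± 1.45% and 9.45 ± 3.86%. Among the pocket proteins, counting Rbl2 with Rb1 and Rbl1, the share of Rbl1 was 5.47% in Ctrl, 22.8 ± 4.28% in Olig1-Gnas and 16.6 ± 5.18% in hGFAP-Gnas. Rb1 held 47.8, 49.9 and 49.9% in the same order. Summed activating E2F FPKM were 0.168 times the summed pocket protein FPKM in Ctrl, 1.66 ± 0.374 times in Olig1-Gnas and 1.21 ± 0.445 times in hGFAP-Gnas. Without hGFAP-Gnas 1 (n = 7), E2f4 to E2f6 summed to 62.8 ± 4.95 FPKM and held 40.8 ± 7.11% of the E2F sum, and E2f7 with E2f8 held 10.6 ± 2.29%. In those 7 libraries Rbl1 held 18.05 ± 3.58% and Rb1 51.3 ± 3.41% of the pocket protein sum, and the activating factors stood at 1.36 ± 0.214 times that sum. These are ratios of transcripts and say nothing of protein or of phosphorylation.

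Markers of cell types differed between the same libraries. All 6 dividing-cell markers (Mki67, Top2a, Birc5, Ccnb1, Bub1, Aurkb) rose in both knockouts, where 36.2% and 26.1% of all genes tested were called higher. Each marker was below 1 FPKM in every Ctrl library and passed the filter only through the knockouts, so a fall could not have been tested. The summed level of these markers was 0.953 to 1.65 FPKM in Ctrl, 377 to 794 FPKM in Olig1-Gnas and 10.8 to 563 FPKM in hGFAP-Gnas, lowest in hGFAP-Gnas 1. All 6 granule progenitor markers also rose in both, with sums of 8.98 to 11.95, 601 to 1217 and 36.9 to 1054 FPKM. Among them Atoh1, Nhlh1 and Igfbpl1 were below 1 FPKM in every Ctrl library and passed only through the knockouts. Mature granule neuron markers fell in 6 of 6 in Olig1-Gnas and 4 of 6 in hGFAP-Gnas, with sums of 1416 to 1827 FPKM in Ctrl, 21.0 to 365 FPKM in Olig1-Gnas and 54.6 to 1235 FPKM in hGFAP-Gnas. The 3 highest of these hGFAP-Gnas sums, 1235, 765 and 662 FPKM, were in hGFAP-Gnas 1, 7 and 2, the libraries with the lowest E2f1. No granule progenitor or dividing-cell marker was at 0 in any library, and Gabra6 was the only mature granule neuron marker at 0, in Olig1-Gnas alone.

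Other cell types differed as well. Purkinje cell markers summed to 1589 to 2613 FPKM in Ctrl, 8.23 to 438 FPKM in Olig1-Gnas and 59.9 to 1309 FPKM in hGFAP-Gnas, so this neuron, which defines the labelled tissue, was weakly marked in some knockout libraries. Microglia and macrophage markers summed to 43.5 to 62.3, 347 to 1206 and 86.2 to 755 FPKM. Oligodendrocyte precursor markers summed to 54.9 to 64.6, 137 to 309 and 87.8 to 536 FPKM, and mature oligodendrocyte markers to 801 to 1050, 20.1 to 272 and 129 to 842 FPKM. Of 6 Bergmann glia and astrocyte markers, 1 rose and 4 fell in Olig1-Gnas, and 1 rose and 3 fell in hGFAP-Gnas. The gene that rose was Gfap in both. Their sums were 2129 to 2965, 132 to 1217 and 780 to 2620 FPKM, and the 3 highest of hGFAP-Gnas, 2620, 2294 and 1906 FPKM, were in hGFAP-Gnas 2, 7 and 1. Endothelium and pericyte markers overlapped between the groups, at 44.3 to 84.9, 39.3 to 106 and 38.5 to 77.8 FPKM. Choroid plexus markers reached a sum of 1244 FPKM in Ctrl 3, of 2362 FPKM in Olig1-Gnas 8 and of 896 FPKM in hGFAP-Gnas 8, and were as low as 3.23, 7.40 and 5.09 FPKM elsewhere in those groups. The part of these cell types in the levels of the 10 genes was not tested.

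**Figure D4:**
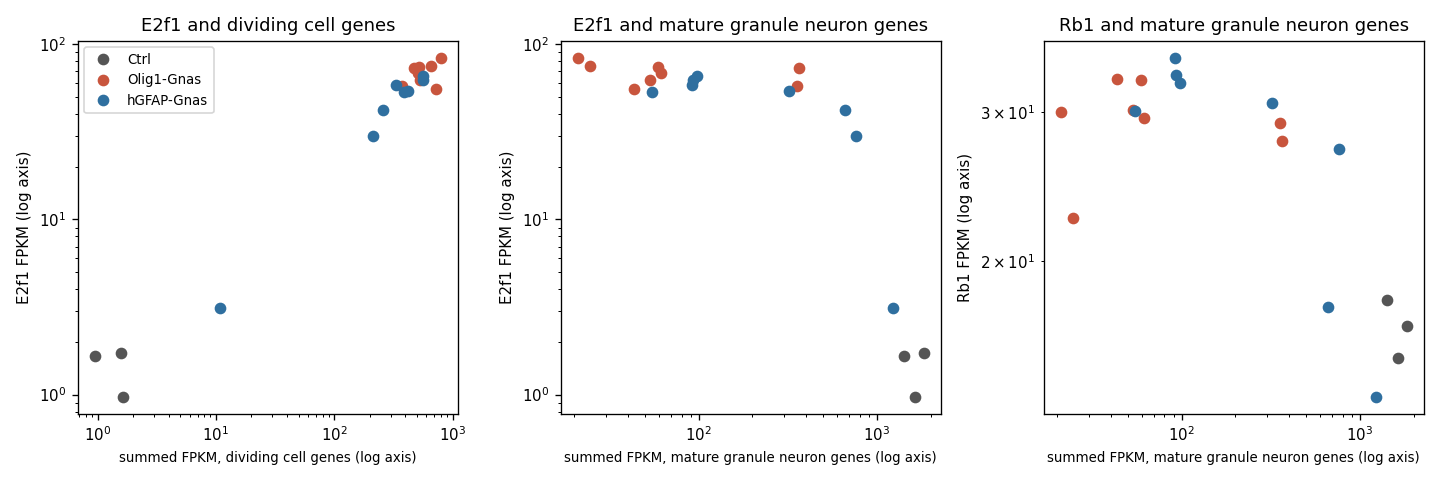
Each point is a library, with FPKM of E2f1 or Rb1 against the summed FPKM of 6 dividing-cell or 6 mature granule neuron markers, all on log axes. The hGFAP-Gnas libraries with the lowest E2f1 have the lowest dividing-cell sums and the highest mature granule neuron sums of their group.

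Depth of the libraries can be read against these levels too. In Olig1-Gnas the log2 difference of E2f1 was 4.82 among deeper and 4.78 among shallower libraries, and that of E2f8 was 3.85 and 3.89. In hGFAP-Gnas that of E2f1 was 3.57 and 4.29, with hGFAP-Gnas 1 and 2 both among the deeper libraries.

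The genes most like each of the 10 were found by Pearson correlation over the 16 knockout libraries after each knockout's mean was subtracted, among 14015 genes tested in both. These values describe libraries that share tissue, depth class and, in hGFAP-Gnas 1, a distant point. E2f1 varied most like Uhrf1, Aurkb and Cdk4, each with r = 0.99, and at 0.95, 0.95 and 0.92 without the 2 libraries farthest from the median. Uhrf1 maintains DNA methylation at replication, Aurkb is a mitotic kinase and Cdk4 phosphorylates pocket proteins. E2f2 varied most like Kif15, Prc1 and Kif18b (all r = 0.98), which act on the spindle. E2f8 varied most like Prr11, Foxm1 and Kif18b (r = 0.99, 0.99 and 0.98), and E2f7 most like Nfib, Aspm and Prr11 (r = 0.98, 0.97 and 0.97). Foxm1 is a transcription factor of mitotic genes, and Aspm is a spindle pole protein.

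Rbl1 varied most like Gabpa, G2e3 and Mms22l (each r = 0.98, and 0.96, 0.95 and 0.95 without the 2 farthest). E2f3 had a different set, Gtf2e1, Man1c1 and Flrt2 (r = 0.98, 0.97 and 0.97), with the low Olig1-Gnas 6 among its 2 farthest libraries. Rb1 varied most like 4930422G04Rik, Ddr2 and Fnbp1l (r = 0.94 each), E2f5 most like Ift74, 1110002B05Rik and Gtf2a2 (r = 0.92, 0.91 and 0.91), and E2f6 most like Ywhaq, Med6 and 0610037P05Rik (r = 0.92, 0.86 and 0.84). For E2f4 the leading r of 0.88 with Cdc42se1 became 0.64 without the 2 farthest libraries, and Tor1b and Cnpy4 followed with 0.88 and 0.87. Among the 10 genes themselves, the 2 farthest libraries differ with the gene that ranks them, so both values follow. E2f1 and E2f8 had r = 0.96, and 0.84 without the 2 farthest in E2f1 or 0.82 without those in E2f8. E2f5 and E2f6 had r = 0.79, and 0.78 or 0.68 without those of E2f5 or of E2f6. E2f1 and E2f4 had r = 0.74, and 0.04 or 0.24 without those of E2f1 or of E2f4.

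The genes around the family were described by lists of partners, regulators and targets. All counts of these lists stand beside 36.2% of all genes tested called higher in Olig1-Gnas and 26.1% in hGFAP-Gnas. DP proteins are the partners that E2F1 to E2F6 need for binding DNA, and both DP genes rose in both knockouts. Tfdp1 went from 24.0 ± 1.57 FPKM in Ctrl to 122 ± 59.0 FPKM in Olig1-Gnas (log2 difference 2.17 ± 0.34, adjusted p = 1.79e-04) and 80.1 ± 30.2 FPKM in hGFAP-Gnas (1.58 ± 0.37, adjusted p = 0.0119). Tfdp2 rose by 0.62 and 0.52. The kinase side rose widely: of 8 genes for the cyclins and kinases that phosphorylate pocket proteins, 7 rose in Olig1-Gnas and 5 in hGFAP-Gnas, none fell, and the median log2 differences were 4.01 and 3.12. Ccnd2, a cyclin of granule progenitors, had 6.23 ± 0.42 and 5.50 ± 0.87, Cdk6 4.86 and 3.74, and Ccnd1 4.42 and 3.37. Ccnd2 was listed at 0, 1.46 and 3.03 FPKM in the lowest, median and highest Ctrl library, and such a 0 can be a failed estimate. Cdk6 was below 1 FPKM in every Ctrl library and passed the filter only through the knockouts, so a fall could not have been tested. Ccnd3 was called in neither knockout.

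Inhibitors of these kinases rose at the same time. Of 7 CDK inhibitor genes, 6 rose in Olig1-Gnas and 4 in hGFAP-Gnas, none fell, and the medians were 1.78 and 1.02. Cdkn2a, whose products act on CDK4 and CDK6 and on p53 control, stood at 0.195 ± 0.116 FPKM in Ctrl, 60.3 ± 58.2 FPKM in Olig1-Gnas, from 12.8 to 142 FPKM, and 6.98 ± 5.28 FPKM in hGFAP-Gnas, from 0.408 to 17.2 FPKM. Its log2 differences from Ctrl were 5.05 ± 0.79 (adjusted p = 2.65e-04) and 2.43 ± 0.60 (adjusted p = 0.0138), and the difference between the knockouts was 2.62 ± 0.60 (adjusted p = 0.0608), which missed the threshold. Cdkn2a was below 1 FPKM in every Ctrl library and passed the filter only through the knockouts, so its fall could not have been tested. Cdkn2c rose by 4.12 and 3.25 and Cdkn1a by 1.87 and 1.55.

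Genes known as E2F targets rose without exception: 20 of 20 in each knockout, with median log2 differences of 3.66 and 2.98. They include Mcm6 of the replicative helicase at 6.30 and 5.39, Uhrf1 at 6.02 and 5.04, and Ccna2, the cyclin of S phase, at 5.98 and 4.96. Ccna2 went from 0.961 ± 0.373 FPKM in Ctrl to 123 ± 19.4 FPKM in Olig1-Gnas and 75.8 ± 36.9 FPKM in hGFAP-Gnas. Several of the 20, Uhrf1 among them, were below 1 FPKM in every Ctrl library and passed the filter only through the knockouts. Mcm6 and Ccna2 were below 1 FPKM in the lowest Ctrl library, so they also needed knockout libraries to pass. A fall of these genes could hardly have been tested, and the counts of 20 include them. Of the 17 targets with a window in the promoter table, 11 or 64.7% held 1 of the 4 words searched, against 4.68% of genes tested. The list was drawn from known E2F targets, so this share describes the list and supports nothing further. In hGFAP-Gnas 1 the levels of these targets were low too, at 5.19 FPKM for Ccna2 and 4.85 FPKM for Mcm6, the lowest of the 8 libraries.

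Apoptosis genes that E2F1 is known to activate did not all move the same way. Apaf1, the apoptosome scaffold, rose by 1.91 ± 0.26 in Olig1-Gnas (adjusted p = 5.84e-05) and 1.53 ± 0.38 in hGFAP-Gnas (adjusted p = 0.0143). Trp73, which encodes p73 and is a textbook target of E2F1, fell from 2.10 ± 0.673 FPKM in Ctrl to 0.299 ± 0.381 FPKM in Olig1-Gnas (log2 difference -1.27 ± 0.24, adjusted p = 7.03e-04) and 0.369 ± 0.290 FPKM in hGFAP-Gnas (-1.18 ± 0.21, adjusted p = 0.00699). Every knockout library lay below every Ctrl library for Trp73.

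**Figure D5:**
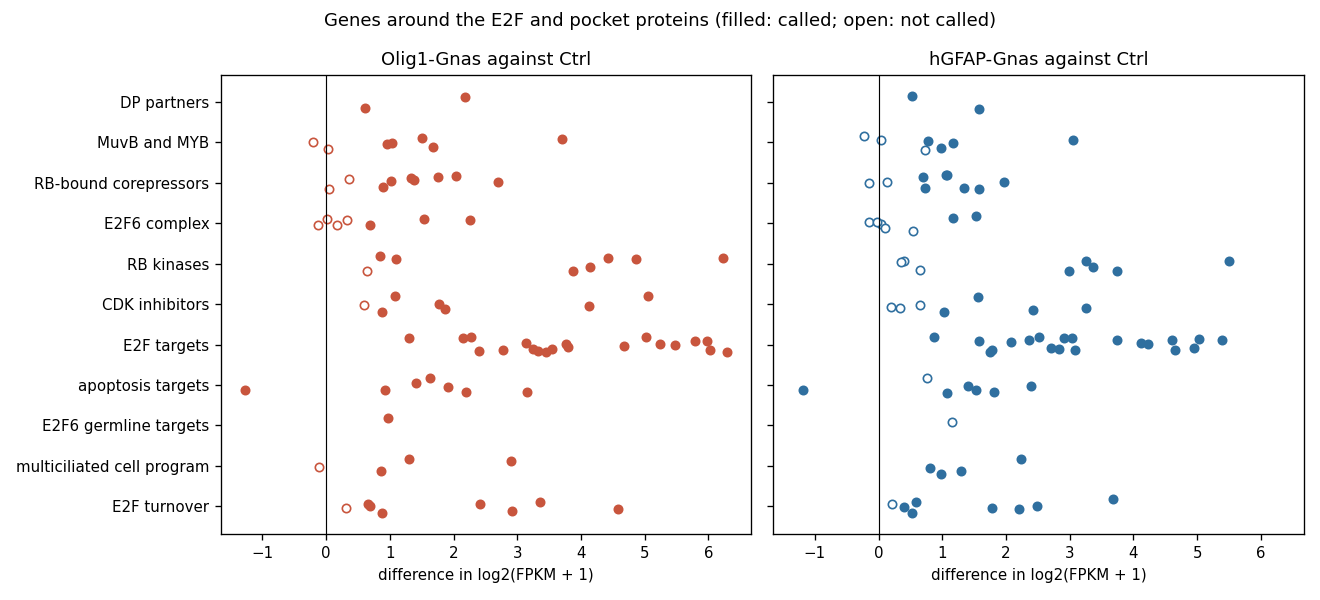
Each point is a tested gene of 1 of the 11 lists, placed by its log2 difference of FPKM + 1 from Ctrl, with Olig1-Gnas on the left, hGFAP-Gnas on the right and called genes filled. E2F targets and RB kinases lie far to the higher side, most E2F6 complex genes lie near 0, and Trp73 is the 1 apoptosis target on the lower side.

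Complexes that carry repression were mixed. Of 7 genes for the MuvB core and the MYB factors that join it, 5 rose in Olig1-Gnas and 4 in hGFAP-Gnas (medians 1.03 and 0.77). Mybl2, which pairs with MuvB in dividing cells, went from 0.145 ± 0.0226 FPKM to 14.2 ± 3.07 and 10.3 ± 5.22 FPKM (3.70 ± 0.19, adjusted p = 2.21e-08, and 3.05 ± 0.60, adjusted p = 0.00807). Mybl2 was below 1 FPKM in every Ctrl library and passed the filter only through the knockouts. Lin52 and Lin37 of the core were called in neither. Of 9 corepressors that bind the retinoblastoma protein, 7 rose in each (medians 1.33 and 1.06), among them Rbbp8 by 2.70 and 1.97, Hdac2 by 2.03 and 1.57 and Suv39h1 by 1.75 and 1.34. Of 7 genes of the E2F6 complex, 3 rose in Olig1-Gnas and 2 in hGFAP-Gnas (medians 0.33 and 0.09, beside 0.22 and 0.19 for all genes). Those counts are near the 36.2% and 26.1% of all genes tested called higher, so they set the list apart from other genes in neither knockout. Cbx3, a heterochromatin protein, rose by 2.26 and 1.53 and Rnf2, a Polycomb ubiquitin ligase, by 1.54 and 1.16.

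E2F6 is known to silence germline genes in body cells, and of 6 such genes only Stag3 passed the filter. Stag3 rose in Olig1-Gnas (0.98 ± 0.35, adjusted p = 0.0277), and in hGFAP-Gnas it had 1.16 ± 0.45 (adjusted p = 0.0590). It was below 1 FPKM in every Ctrl library and passed only through the knockouts. The means of the others were below 1 FPKM in every group. In both knockouts the means of Mael, Tuba3a and Tuba3b were lower than in Ctrl, and those of Smc1b and Slc25a31 were higher. E2F4 and E2F5 also serve the program of multiciliated cells, and 4 of 8 of its genes were tested. Of these, 3 rose in Olig1-Gnas and 4 in hGFAP-Gnas, with Myb at 2.90 and 2.23 and Rfx3 at 1.29 and 0.98. Myb was below 1 FPKM in every Ctrl library and passed the filter only through the knockouts. Foxj1 had -0.11 ± 0.48 in Olig1-Gnas (adjusted p = 0.863) and rose in hGFAP-Gnas by 1.29 ± 0.37 (adjusted p = 0.0210), and between the knockouts it missed the threshold (-1.39 ± 0.32, adjusted p = 0.0605). A list of 8 genes around E2F turnover holds parts of ubiquitin ligases and regulators of ligases, which need not promote turnover. Of these, 7 rose in each knockout (medians 1.65 and 1.18), led by Cdc20 at 4.58 and 3.68, Ccnf at 3.36 and 2.48 and Fbxo5 at 2.92 and 2.20. No gene of any of these 11 lists was called between the knockouts. Counts in hGFAP-Gnas were also taken without hGFAP-Gnas 1, a step added to the lists after values were seen. E2F targets stayed at 20 of 20 higher, RB-bound corepressors and the E2F turnover genes at 7 each, both DP genes and the 4 multiciliated cell genes were higher as before, and Stag3 was called too. The RB kinases went from 5 to 7 higher, CDK inhibitors from 4 to 5, MuvB and MYB genes from 4 to 5 and E2F6 complex genes from 2 to 3, and none of these genes was called lower. Calls grew over all genes too, from 26.1% called higher with every library to 38.0% in that fit. The medians were 3.37 for E2F targets, 3.53 for RB kinases, 1.18 for CDK inhibitors and 0.11 for the E2F6 complex.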

How the data were processed

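The authors deposited FPKM per gene, in a separate table for each knockout that also holds the Ctrl libraries, made with TopHat, Cufflinks and the mm9 genome per the submitters' processing notes. Their versions are not given in the sources used here. By the labels, TruSeq libraries were made from column-purified total RNA, with 1 library for each of 19 mice. FPKM carries the authors' own scaling to library totals and was not rescaled in the main test. Sums per library ran from 505739 to 689165. An exact 0 can be a failed estimate. Precision depends on depth, and read totals are unknown.

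limma 3.58.1 in R 4.3.3, with trend and robust moderation, was fitted on log2(FPKM + 1) over all genes that reached 1 FPKM in 3 or more libraries, with Benjamini-Hochberg adjustment. It was also run on simulated data, in which the spread of each gene was capped and no change was planted in genes near the floor. That run therefore does not cover the wide spread in hGFAP-Gnas or the genes lowest in Ctrl. Each fit against Ctrl used its own table, and the third fit joined the tables. Relative depth came from the ratio of values under 0.5 FPKM to Ctrl 2, and libraries under 0.6 were called shallower.

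The 10 genes, the lists and the rule were chosen with earlier results of these data known. The rule named the 10 genes, Gnas, up to 3 called genes of each list with the largest change, and the 3 genes most correlated with each of the 10. Other names were chosen after values were seen: Rbl2, Ccnd3, Lin37, Lin52 and Foxj1 in Olig1-Gnas. Alternatives changed the offset, filter, scaling, moderation, threshold, design and libraries. Results of some genes that the rule names, and counts of the list that holds them, are not reported here.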

Additional observations from a re-analysis of the deposited data

Results flagged for a closer look

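In each of the 20 pairs of a gene and a knockout group, the highest and lowest library were compared with the rest by Dixon's ratio. This is the gap to the nearest library over the whole range, taken on log2(FPKM + 1). The ratios are therefore not those of the FPKM printed beside them, and a library that passes on the log scale need not pass on FPKM. Dixon's critical value for 8 libraries at 95% was the limit, and chance passes it in about 1 group in 20. In 6 pairs a library passed. E2f1 at 3.12 FPKM, E2f2 at 0.286 FPKM and E2f8 at 0.424 FPKM were all low in hGFAP-Gnas 1, with ratios of 0.721, 0.681 and 0.633. E2f3 at 4.11 FPKM was low and Rbl1 at 23.4 FPKM was high in Olig1-Gnas 6, with ratios of 0.767 and 0.529. In that library E2f1 to E2f3 made up 40.1% of summed E2F FPKM, the lowest of Olig1-Gnas, and its dividing-cell markers summed to 722 FPKM, within the range of its group. Rb1 at 22.4 FPKM was low in Olig1-Gnas 4, with a ratio of 0.552. The causes were not tested.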

How the results depend on the processing

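E2f1, E2f2, E2f7, E2f8 and Rbl1 stayed called in Olig1-Gnas under each of the 25 alternatives, and the number of the 10 genes called was 9 to 9 when 1 library was left out, with 6971 to 9546 called of all genes, and 6 to 9 otherwise, with the 6 among shallower libraries, where 5141 of 13111 genes were called. In hGFAP-Gnas 6 genes were called in the main test, 2 at an adjusted p under 0.01 (921 of 14305 genes in all), 0 with the replicate number as a block and 0 among the deeper libraries, and 2 to 9 when 1 library was left out, beside 818 to 8164 of all genes. The block called 0 genes of all those tested in hGFAP-Gnas by limma, with 4 of the 10 genes and 2654 of all genes at an unadjusted p under 0.05. Correlations of same-numbered libraries ran from -0.171 to 0.254, so the numbers do not pair the mice, and that result is no measure of a weaker effect. Without Ctrl 2 the call of E2f2 ended (adjusted p = 0.0505), that of Rbl1 without Ctrl 1 or Ctrl 2, and those of E2f3 and E2f7 whenever 1 Ctrl library was left out (largest adjusted p 0.0623, 0.0714 and 0.0566). Between the knockouts 0 of the 10 genes were called in every alternative. E2f6 in Olig1-Gnas, not called in any, turned to -0.18 after quantile normalization and upper quartile scaling, -0.035 with the replicate block, -0.020 with a term for Y-linked signal, -0.057 among shallower libraries, and ran from -0.032 to 0.043 with 1 library left out. Between the knockouts, not called either, E2f3 turned to -0.012 with the Y-linked term and ran from -0.12 to 0.29 with 1 library left out, and Rb1 turned to -0.14 among shallower libraries. The causes were not tested. Scaling moved the share of calls that were higher from 60.5% to 51.4% in Olig1-Gnas under both scalings, and from 67.1% to 49.8% (quantile) and 60.8% (upper quartile) in hGFAP-Gnas. An offset of 0.1 raised the log2 differences of low genes, to 5.74 for E2f2, 4.21 for E2f7 and 6.50 for E2f8 in Olig1-Gnas. Fits on shallower libraries hold 1 Ctrl library, which is assumed to vary like the others.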
